A study of Rattus norvegicus with 6 samples.

Results

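Mitochondria carry their own protein folding and protein degradation machinery, and the genes of this machinery and of the signal that leaves a stressed mitochondrion were examined in primary rat microglia. The 10 genes were picked by name (Hspd1, Hspe1, Hspa9, Lonp1, Clpp, Clpx, Oma1, Dele1, Gdf15 and Fgf21), and all 10 were among the 23139 genes listed in the count tables. Microglia from the cortex of Wistar rats at postnatal day 1 were shaken off mixed cultures, sorted with CD11b/c beads and stimulated with lipopolysaccharide (LPS, 100 ng/mL), a bacterial cell wall component that activates these cells. The LPS + DMSO group (n = 3 libraries) received the solvent and the LPS + Siponimod group (n = 3) received 50 µM siponimod, a sphingosine 1-phosphate receptor modulator. Neither cells without LPS nor siponimod without LPS were among these 6 libraries, so that every value below compares siponimod with its solvent in the presence of LPS. The cells were neonatal cells in culture, and the labels do not give the time between stimulation and lysis.

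Most mitochondrial proteins are made in the cytosol and imported unfolded. Hspa9 encodes the mitochondrial Hsp70, which pulls precursors through the inner membrane and folds them, and Hspd1 and Hspe1 encode the chaperonin chamber and its lid. Lonp1 encodes a protease of the matrix, while Clpp encodes a peptidase to which the unfoldase encoded by Clpx feeds its substrates. Oma1 encodes a protease of the inner membrane that is activated by mitochondrial stress and cuts DELE1, whose fragment reaches the cytosol and activates the eIF2α kinase HRI (Eif2ak1). Phosphorylated eIF2α favours translation of the transcription factors ATF4, CHOP (Ddit3) and ATF5, and GDF15 and FGF21 are secreted hormones whose genes respond to them. OMA1 and DELE1 are regulated by cleavage, which read counts do not measure.

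The depth was 39484979, 38301365 and 38080379 counts in LPS + DMSO replicates 1, 2 and 3, and 46643859, 43336006 and 38857441 counts in LPS + Siponimod replicates 1, 2 and 3. Values are given as CPM, the counts of a gene scaled to a common library size, and a log2 fold change (FC) is LPS + Siponimod against LPS + DMSO in edgeR's quasi-likelihood fit. The error of a log2 FC is its standard error (SE). A differentially expressed gene (DEG) had an adjusted p of at most 0.05 and an FC of at least 1.5. All 12 microglia markers were detected, led by Csf1r, and their summed level was 9143, 7572 and 5156 CPM in the LPS + DMSO libraries against 4241, 5136 and 3190 CPM in the LPS + Siponimod libraries. Of these 12 markers 3 were DEGs, all lower, namely Itgam, Aif1 and Cx3cr1, beside 11.7% of all genes tested that were downregulated DEGs. In bulk RNA, fewer cells of a type and less RNA per cell cannot be told apart.

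The libraries numbered 3 stood apart from the others in some genes of other brain cells. LPS + DMSO replicate 3 had 515 counts of Olig1, 162 of Map2 and 88 of Gfap, against at most 5, 3 and 2 in LPS + DMSO replicates 1 and 2. LPS + Siponimod replicate 3 had 81 counts of Pdgfra and 115 of Map2, against at most 4 and 1 in the other LPS + Siponimod libraries. It had only 17 counts of Olig1 and 1 of Gfap, against at most 3 and 0 there. In LPS + DMSO, counts of Slc1a2, Sox9, Gja1, Aqp4 and S100b were, like those of Gfap, highest in replicate 3. Those of the astrocyte markers Slc1a3, Aldh1l1 and Aldoc were lowest there, Slc1a3 having 1500, 775 and 574 in replicates 1, 2 and 3. Summed over 9 oligodendrocyte lineage markers, of which Mbp was the most abundant, the level was 5.37, 5.37 and 36.0 CPM with LPS + DMSO and 11.4, 10.3 and 22.6 CPM with LPS + Siponimod. For 9 neuron markers led by Tubb3 it was 1.73, 1.09 and 12.6 CPM against 6.46, 9.28 and 22.5 CPM, and for 9 astrocyte markers led by Slc1a3 it was 48.4, 24.4 and 27.6 CPM against 29.4, 28.8 and 61.1 CPM. Fibroblast and vessel markers, 8 genes led by Cdh5, summed to 160.4, 206 and 85.5 CPM against 47.9, 82.5 and 32.9 CPM. Mbp was the upregulated DEG of 3 tested oligodendrocyte lineage markers, Snap25 of 2 neuron markers and Dcn of 7 fibroblast and vessel markers. Of these 7 markers, 5 had a negative log2 FC. Aldoc was the downregulated DEG of 4 tested astrocyte markers. Among all genes tested, 13.6% were upregulated and 11.7% downregulated DEGs. Snap25 had 0, 1 and 1 counts with LPS + DMSO and 94, 153 and 81 with LPS + Siponimod, and Dcn had 3, 0 and 4 against 456, 49 and 178, so that these low genes were counted almost only with siponimod. No listed marker was without a count in all 6 libraries. The part of these cells in the results was not tested.

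Counts sufficed to test 9 of the 10 genes, and 3 of these were upregulated DEGs, namely Hspa9, Lonp1 and Gdf15. The remaining 6 were not DEGs, and Fgf21 was too rarely counted for the test. Among all 11977 genes tested, 25.3% were DEGs, 13.6% being higher and 11.7% lower with siponimod. Changes were thus common in these cells, and 3 of 9 genes does not by itself set this machinery apart. That share depended on the libraries used. With single libraries left out, the total of 3036 DEGs ranged from 651 to 3713, while 2 or 3 of the 9 genes were DEGs. None of the 10 was a downregulated DEG in edgeR's quasi-likelihood test, and none had a negative log2 FC with an unadjusted p under 0.05 in that test, in DESeq2, in limma-voom or in edgeR's likelihood ratio test. Their lowest log2 FC was -0.19, their median 0.30 and their highest 4.70, against a median of -0.02 over all genes tested. In CPM, the 3 libraries of each group did not overlap for Hspa9, Lonp1, Gdf15 and Clpp, which is found in either direction for 49.3% of all genes tested.

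**Figure D1:**
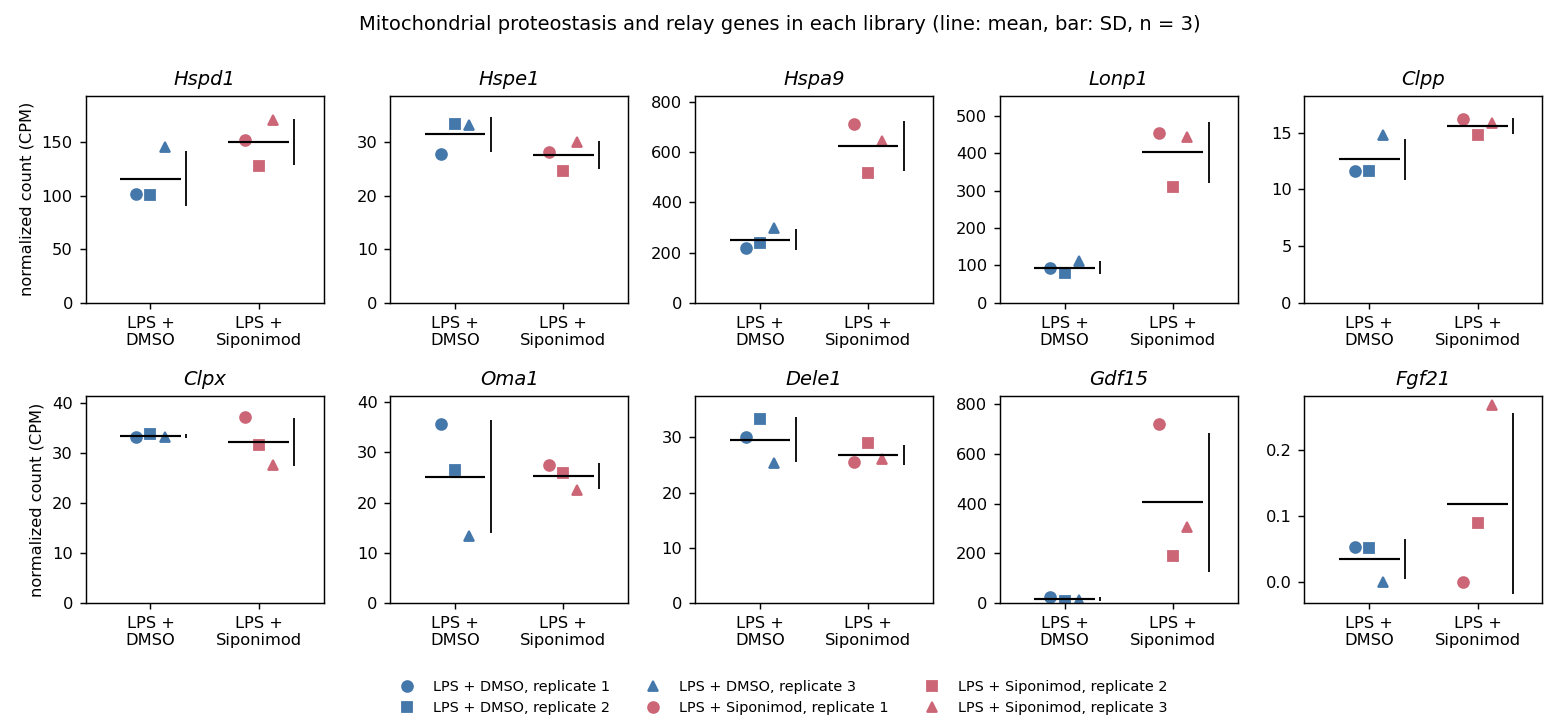
Normalized counts (CPM, linear axes that differ between panels) of the 10 genes in each of the 6 libraries, with the 3 LPS + DMSO libraries on the left and the 3 LPS + Siponimod libraries on the right of each panel; the line is the mean and the bar the SD (n = 3), and the symbol gives the replicate number. The groups lie apart in the panels of Hspa9, Lonp1 and Gdf15, touch in that of Clpp (14.8 CPM, as rounded, for the nearest library on either side), and overlap in the other 6.

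Hspa9, the gene of the import motor, rose with siponimod. It was at 217, 238 and 298 CPM in LPS + DMSO replicates 1, 2 and 3 and at 713, 518 and 645 CPM in LPS + Siponimod replicates 1, 2 and 3. Every siponimod library was above every solvent library. The mean went from 251 ± 41.9 to 626 ± 98.9 CPM (SD, n = 3 each), a log2 FC of 1.32 (± 0.20 SE, adjusted p = 0.0096, edgeR quasi-likelihood test), which is 2.49-fold with a 95% interval from 1.79 to 3.48. Without LPS + DMSO replicate 2 the adjusted p was 0.0515 at a log2 FC of 1.30, and without the libraries numbered 3 the log2 FC was 1.44 (quasi-likelihood adjusted p = 0.0355). The nucleotide exchange factors of this motor had smaller values. Grpel1 was at 30.9 ± 1.78 and 39.5 ± 3.89 CPM (log2 FC 0.35, quasi-likelihood adjusted p = 0.0697) and Grpel2 at 15.1 ± 3.12 and 22.1 ± 2.78 CPM (log2 FC 0.55, adjusted p = 0.0775). The count ratio of Hspa9 to Grpel1 was 6.99, 8.19 and 9.13 with LPS + DMSO and 16.4, 14.5 and 16.4 with LPS + Siponimod, without overlap of the groups (exact permutation p = 0.10, two-sided, the smallest that 3 libraries against 3 can give).

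The chaperonin genes Hspd1 and Hspe1 were not DEGs. Hspd1 was at 101, 101 and 145 CPM with LPS + DMSO and at 152, 128 and 171 CPM with LPS + Siponimod. Within same-numbered pairs it was higher with siponimod in 3 of 3, but LPS + DMSO replicate 3 lay above LPS + Siponimod replicate 2, so that the groups overlapped. The fitted log2 FC was 0.38 (± 0.20 SE, adjusted p = 0.194, edgeR quasi-likelihood test), with a 95% interval of the fold from 0.929 to 1.81. With the replicate number as a block, the log2 FC of Hspd1 was 0.39 (± 0.13 SE, quasi-likelihood adjusted p = 0.0686), still not a DEG. Without LPS + DMSO replicate 3 the log2 FC of Hspd1 was 0.58 (quasi-likelihood adjusted p = 0.0454), just under the 1.5-fold limit, and without both libraries numbered 3 it was 0.48 (adjusted p = 0.0897). Hspe1 was at 27.7, 33.3 and 33.3 CPM against 28.1, 24.7 and 30.0 CPM, with overlapping groups and a log2 FC of -0.19 (± 0.14 SE, quasi-likelihood adjusted p = 0.324). The 95% interval of its fold ran from 0.699 to 1.10, so that a rise of 1.5-fold lay outside it. For Hspd1 the RefSeq gene table names 20 pseudogenes and 2 further like-named genes, for Hspa9 2 pseudogenes and for Hspe1 and Oma1 1 each, none of which is listed in the count tables. How the authors' counting divided reads shared with such copies is not stated in the sources used here, and the levels of these genes are uncertain to that extent.

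The chamber and its lid are made from neighbouring genes, and the ratio of their counts was higher in every siponimod library. The count ratio of Hspd1 to Hspe1 was 3.65, 3.02 and 4.36 with LPS + DMSO and 5.40, 5.18 and 5.68 with LPS + Siponimod. All siponimod libraries had a higher ratio than all solvent libraries, by 1.49-fold on average (exact permutation p = 0.10, two-sided, adjusted p = 0.129 over 9 ratios). A ratio within a library needs no scaling to depth, but it is a ratio of counts and not of molecules, since gene length was not taken into account. In RefSeq (build GRCr8) the annotated starts of the 2 genes lie 290 bases apart on opposite strands, and the windows from 250 bases before to 50 after each start share 211 bases. Both windows are shown because these genes share most of this stretch, while their count ratio did not overlap between the groups. Capitals mark the letters TTCNNGAA and GAANNTTC, inverted repeats to which heat shock factors bind, which were searched on both strands and overlap each other here. The run in capitals lies at -65 to -48 from the Hspe1 start and at -242 to -225 from the Hspd1 start, the start being counted as 0.
Hspe1, GRCr8 chr9:64084077-64084376, plus strand: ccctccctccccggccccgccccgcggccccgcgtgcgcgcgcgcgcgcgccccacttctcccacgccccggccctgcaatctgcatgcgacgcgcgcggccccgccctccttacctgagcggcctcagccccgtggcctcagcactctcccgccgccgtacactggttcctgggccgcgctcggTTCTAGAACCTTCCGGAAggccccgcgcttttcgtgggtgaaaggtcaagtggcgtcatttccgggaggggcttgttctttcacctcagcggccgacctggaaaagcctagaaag
Hspd1, GRCr8 chr9:64083988-64084287, minus strand: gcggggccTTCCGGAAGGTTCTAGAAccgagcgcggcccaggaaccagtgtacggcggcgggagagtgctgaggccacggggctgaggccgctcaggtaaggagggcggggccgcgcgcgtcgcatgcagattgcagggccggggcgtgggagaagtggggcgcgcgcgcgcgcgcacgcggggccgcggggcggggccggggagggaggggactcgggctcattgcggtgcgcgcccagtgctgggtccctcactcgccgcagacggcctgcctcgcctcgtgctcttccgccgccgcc

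The letters TTCNNGAA were found in 8.77% and GAANNTTC in 8.59% of all 33469 RefSeq promoter windows of this length, and both together in 1.51%. Of the 8 genes with a window, Hspd1, Hspe1, Hspa9 and Clpp held both. Hspa9 was the only DEG among them. Its window is shown for comparison, with GAANNTTC at -84 to -77 and TTCNNGAA at 17 to 24 from the start. These matches describe letters and not binding.
Hspa9, GRCr8 chr18:26828349-26828648, minus strand: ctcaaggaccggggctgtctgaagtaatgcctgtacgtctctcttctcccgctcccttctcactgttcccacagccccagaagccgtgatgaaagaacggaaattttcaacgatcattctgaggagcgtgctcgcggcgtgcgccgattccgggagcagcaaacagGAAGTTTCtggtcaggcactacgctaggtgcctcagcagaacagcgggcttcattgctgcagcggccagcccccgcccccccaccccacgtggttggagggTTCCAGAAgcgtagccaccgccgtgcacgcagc

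Among the matrix proteases, Lonp1 rose and the ClpXP pair did not pass the test. Lonp1 was at 92.5, 78.8 and 112 CPM in LPS + DMSO replicates 1, 2 and 3 and at 455, 309 and 443 CPM in the LPS + Siponimod replicates. The groups were far apart, and the highest solvent library was below the lowest siponimod library. Mean levels were 94.5 ± 16.7 CPM with solvent and 403 ± 80.8 CPM with siponimod (SD, n = 3 each; log2 FC 2.09 ± 0.22 SE, adjusted p = 0.00582, edgeR quasi-likelihood test), or 4.26-fold with a 95% interval from 2.94 to 6.18. Lonp1 had the smallest adjusted p of the 9 genes, and the adjusted p with single libraries left out was between 0.00628 and 0.0397. Clpp was at 11.6, 11.7 and 14.8 CPM against 16.2, 14.8 and 15.9 CPM, so that the 3 siponimod libraries were above the solvent libraries by a narrow margin (log2 FC 0.30 ± 0.15 SE, quasi-likelihood adjusted p = 0.18). Clpx was at 33.1, 33.8 and 33.1 CPM against 37.1, 31.6 and 27.6 CPM, with overlapping groups (log2 FC -0.05 ± 0.14 SE, quasi-likelihood adjusted p = 0.784). Without the libraries numbered 3 the log2 FC was 0.42 for Clpp (quasi-likelihood adjusted p = 0.112) and 0.04 for Clpx (adjusted p = 0.845), with a change of sign for Clpx. The 95% interval of the fold was from 0.952 to 1.59 for Clpp and from 0.767 to 1.21 for Clpx, both below the lower bound of 2.94 found for Lonp1.

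Ratios of counts within each library restate these same counts without scaling to depth and are no separate evidence. For every Clpx count there were 2.79, 2.33 and 3.39 Lonp1 counts with LPS + DMSO and 12.3, 9.80 and 16.0 with LPS + Siponimod, a 4.44-fold change of the ratio. Against Clpp the ratio of Lonp1 was 7.97, 6.76 and 7.58 and then 28.1, 20.9 and 27.9, a 3.42-fold change. The ratio of Lonp1 to Hspa9, the other DEG of the matrix, was 0.426, 0.332 and 0.376 with LPS + DMSO and 0.639, 0.597 and 0.686 with LPS + Siponimod, so that Lonp1 counts rose more than Hspa9 counts in each pair. None of these 3 comparisons can fall below the exact permutation p of 0.10 that each reached. The ratio of Clpx to Clpp was 2.86, 2.90 and 2.24 against 2.29, 2.13 and 1.74, lower with siponimod in 3 of 3 pairs but with overlapping groups (exact permutation p = 0.20, two-sided). Of the 9 ratios, 6 were chosen after the values of the genes were seen, among them all those with Lonp1 and that of Hspa9 to Grpel1.

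**Figure D2:**
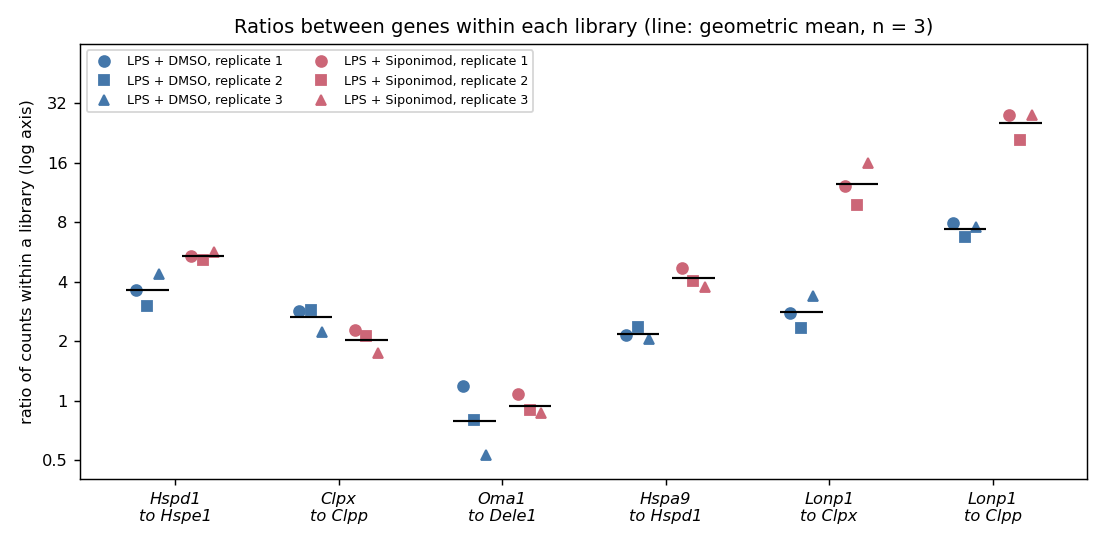
Ratios of raw counts between genes within each library (logarithmic axis), for 6 of the 9 ratios, with LPS + DMSO in blue and LPS + Siponimod in red; the line is the geometric mean of 3 libraries. The groups lie apart for Hspd1 to Hspe1, Hspa9 to Hspd1, Lonp1 to Clpx and Lonp1 to Clpp, and overlap for Clpx to Clpp and for Oma1 to Dele1.

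The genes of the relay itself, Oma1 and Dele1, were not DEGs. Oma1 was at 35.6, 26.6 and 13.4 CPM with LPS + DMSO and at 27.6, 26.0 and 22.5 CPM with LPS + Siponimod. The solvent libraries spread more widely than the siponimod libraries and enclosed them. LPS + DMSO replicate 3, which stood apart in some markers of other cells, had the lowest Oma1 level of all 6. The log2 FC was 0.01 (± 0.34 SE, adjusted p = 0.987, edgeR quasi-likelihood test), and the 95% interval of the fold, from 0.568 to 1.78, is wide. Without both libraries numbered 3 the log2 FC was -0.21 (quasi-likelihood adjusted p = 0.429). Dele1 was at 30.1, 33.4 and 25.3 CPM against 25.5, 29.0 and 26.0 CPM, again overlapping (log2 FC -0.14 ± 0.14 SE, quasi-likelihood adjusted p = 0.477). Its interval was narrower, from 0.715 to 1.15. The ratio of Oma1 to Dele1 counts was 1.18, 0.795 and 0.530 against 1.08, 0.896 and 0.865 (exact permutation p = 0.60, two-sided), a log2 difference of 0.25 that was 0.02 without the libraries numbered 3. Eif2ak1, the gene of the kinase HRI on which the relay acts, was at 56.4 ± 8.47 and 52.1 ± 2.44 CPM (log2 FC -0.11, quasi-likelihood adjusted p = 0.558).

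Of the 2 secreted hormones, Gdf15 had the largest change of the 9 genes tested. It was at 24.8, 7.40 and 14.4 CPM in LPS + DMSO replicates 1, 2 and 3, from 919, 285 and 536 counts, and at 722, 188 and 305 CPM in LPS + Siponimod replicates 1, 2 and 3, from 33564, 8400 and 12500 counts. The lowest siponimod library was well above the highest solvent library. Replicate 1 was the highest and replicate 2 the lowest in both groups, and the log2 difference within pairs was 4.86, 4.66 and 4.40. The means were 15.5 ± 8.76 and 405 ± 281 CPM (SD, n = 3 each; log2 FC 4.70 ± 0.71 SE, adjusted p = 0.0097, edgeR quasi-likelihood test), a fold of 26.1 with a 95% interval from 7.90 to 86.0. Without LPS + Siponimod replicate 1, the highest library, the log2 FC of Gdf15 was 3.98 (quasi-likelihood adjusted p = 0.0342), and with single libraries left out it ran from 3.98 to 5.24. With the replicate number as a block, the log2 FC of Gdf15 was 4.65 and the adjusted p 0.00157. Ordered from the highest positive to the lowest negative log2 FC, Gdf15 ranked 86, Lonp1 546 and Hspa9 1101 among the 11977 genes.

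Fgf21 was hardly counted in either group. It had 2, 2 and 0 counts with LPS + DMSO and 0, 4 and 11 with LPS + Siponimod. In these libraries 3 counts correspond to between 0.0646 and 0.0810 CPM. Only LPS + Siponimod replicates 2 and 3 exceeded 3 counts, and replicate 3 is among the libraries that stood apart in some markers of other cells. With no filter on low counts the quasi-likelihood adjusted p was 0.49, so that no difference was detectable at this depth. No molecular identifiers are described for these reads, and this floor reflects counting error alone. The Fgf21 promoter is shown because it was the only one of the 9 windows of these genes to hold TTGCATCA (or TGATGCAA on the other strand), the composite site of ATF4 and its partners. The letters, in capitals at -143 to -136 from the start, occur in 0.795% of all windows. Neither of the 2 Gdf15 windows held these letters or either of the heat shock letters. Of the other letters searched on both strands, CCACG (31.6% of all windows) was found in the windows of Fgf21, Hspd1, Hspe1 and Hspa9 and CCAAT (37.5%) in that of Dele1 and in 1 of the 2 Gdf15 windows, while TGACGTCA (1.83%) and GCATGCGC (2.47%) were in none. No match says only that the letters are not in the window.
Fgf21, GRCr8 chr1:105221327-105221626, minus strand: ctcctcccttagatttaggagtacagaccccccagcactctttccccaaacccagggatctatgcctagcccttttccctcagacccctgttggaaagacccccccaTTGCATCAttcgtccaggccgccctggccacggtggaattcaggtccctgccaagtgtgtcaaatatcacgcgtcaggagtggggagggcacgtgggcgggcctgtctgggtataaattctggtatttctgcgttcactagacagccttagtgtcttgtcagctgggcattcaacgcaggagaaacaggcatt

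**Figure D3:**
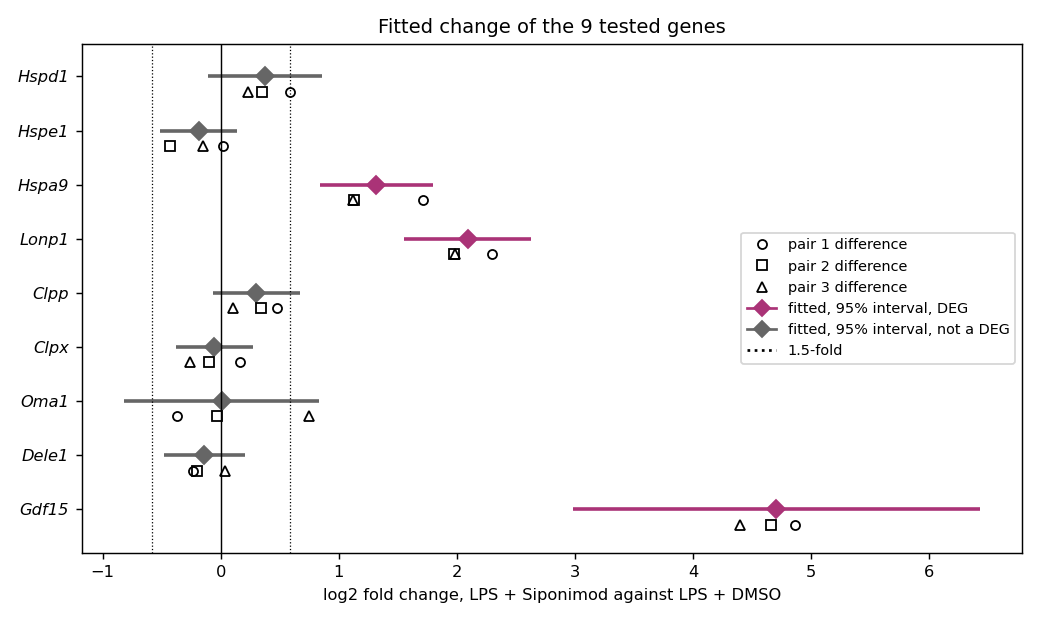
Fitted log2 FC (LPS + Siponimod against LPS + DMSO) of the 9 tested genes with the 95% interval of edgeR's quasi-likelihood fit, DEGs in purple and other genes in grey, and below each the log2 difference of CPM within the 3 same-numbered pairs (open symbols); dotted lines mark a 1.5-fold change. The intervals of Hspa9, Lonp1 and Gdf15 lie wholly above the upper dotted line, and those of the other 6 genes include 0.

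In the remaining mitochondrial chaperones and co-chaperones, changes went both ways. Of 12 tested genes, Hspd1, Hspe1 and Hspa9 included, 2 were upregulated and 3 downregulated DEGs, beside 13.6% and 11.7% of all genes, with a median log2 FC of 0.16. Beside Hspa9, Bcs1l, whose product inserts the Rieske protein into respiratory complex III, rose from 2.03 ± 0.336 to 4.56 ± 0.954 CPM (log2 FC 1.17 ± 0.26 SE, quasi-likelihood adjusted p = 0.0247). The DEGs that fell were Dnajc19 (log2 FC -0.72, adjusted p = 0.0218) and Dnajc15 (-0.84, 0.0398), related J proteins of the import motor, and Trap1 (-0.63, 0.0289), the mitochondrial Hsp90. Trap1 was at 47.0, 55.8 and 45.2 CPM against 28.6, 37.3 and 29.5 CPM, without overlap.

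Of 21 tested genes of mitochondrial proteases and their regulators, 4 were DEGs, a share no higher than the 25.3% among all genes. Lonp1 was the upregulated DEG and 3 were downregulated ones, with a median log2 FC of -0.15. Immp1l, a subunit of the inner membrane peptidase, fell from 3.57 ± 0.267 to 1.40 ± 0.240 CPM (log2 FC -1.35 ± 0.25 SE, quasi-likelihood adjusted p = 0.0148). Mipep, which trims imported precursors, had a log2 FC of -1.31 (adjusted p = 0.0237), and Afg3l1, a subunit of the matrix-facing AAA protease, one of -0.71 (0.0271). Its partner Afg3l2 was at 63.1 ± 4.59 and 82.8 ± 6.33 CPM, with an adjusted p of 0.0498 but a fold of 1.31, under the limit for a DEG. Yme1l1, the inner membrane protease that shares substrates with OMA1, was at 180.2 ± 3.53 and 145 ± 10.5 CPM (log2 FC -0.31, quasi-likelihood adjusted p = 0.0894).

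In the list of OMA1 substrates and inner membrane dynamics, 1 of 11 tested genes was an upregulated and 1 a downregulated DEG, shares near those of all genes (13.6% and 11.7%), and the median log2 FC was 0.13. Mtfp1, an inner membrane protein that promotes fission, rose from 2.54 ± 0.479 to 6.05 ± 1.31 CPM (log2 FC 1.25 ± 0.26 SE, quasi-likelihood adjusted p = 0.0201). Fis1, an outer membrane protein of fission, fell from 78.6 ± 1.34 to 44.0 ± 5.93 CPM (log2 FC -0.84 ± 0.13 SE, adjusted p = 0.00981). Opa1, the fusion protein that OMA1 cuts, was at 53.2 ± 3.73 and 46.6 ± 2.88 CPM (log2 FC -0.19, quasi-likelihood adjusted p = 0.226).

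The import machinery had 3 upregulated and 5 downregulated DEGs among 27 tested genes, beside 13.6% and 11.7% of all genes, with 20 negative log2 FCs and a median of -0.35. Timm22, the channel for carrier proteins, fell from 33.5 ± 2.23 to 16.3 ± 1.84 CPM (log2 FC -1.04 ± 0.13 SE, quasi-likelihood adjusted p = 0.00733). Romo1 (log2 FC -0.75, adjusted p = 0.0112) and Timm17a (-0.83, 0.0159), both of the presequence translocase, were lower as well. The upregulated DEGs were Gfer (log2 FC 0.89, adjusted p = 0.0298) and Chchd4 (0.94, 0.0403), which together form the disulfide relay of the intermembrane space, and Timm8a1 (1.59, 0.0392), a small chaperone of that compartment.

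Among the genes of the eIF2α kinases, their opposing phosphatases, eIF2 and eIF2B, 4 of 13 tested were DEGs, beside 25.3% of all genes. Of the kinase genes, Eif2ak3 (PERK) rose from 14.0 ± 3.60 to 33.1 ± 4.42 CPM (log2 FC 1.24 ± 0.23 SE, quasi-likelihood adjusted p = 0.0148), and Eif2ak2 (PKR), an interferon-inducible gene, fell from 345 ± 30.2 to 129.9 ± 27.9 CPM (log2 FC -1.41, adjusted p = 0.00779). Eif2ak4 (GCN2) was at 3.67 ± 0.810 and 4.04 ± 0.358 CPM (adjusted p = 0.70), and Eif2ak1 was not a DEG, as given above. The phosphatase subunits Ppp1r15a (log2 FC 4.62, adjusted p = 0.00647) and Ppp1r15b (0.68, 0.00986), which oppose the kinases, were both upregulated DEGs. The genes of eIF2 and of its exchange factor eIF2B were not DEGs, with log2 FCs from -0.19 (Eif2b5) to 0.59 (Eif2b3), and Eif2b4 passed the limit of the adjusted p but not of the fold (0.49, 0.045). Of the 4 DEGs of this list 3 were upregulated and 1 downregulated, and its median log2 FC was 0.15.

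Among the transcription factors, Atf5 was at 14.7, 12.2 and 14.2 CPM with LPS + DMSO and at 88.5, 105 and 99.8 CPM with LPS + Siponimod (log2 FC 2.83 ± 0.13 SE, adjusted p = 0.00174, edgeR quasi-likelihood test). Atf4 (log2 FC 2.44, adjusted p = 0.00321), Ddit3 (3.11, 0.0036) and Cebpb (0.95, 0.0321) were DEGs too, and Atf3 was not (0.62, quasi-likelihood adjusted p = 0.236), which makes 4 upregulated DEGs of 5 tested genes, beside 13.6% of all genes. Of 19 ATF4 targets 14 were upregulated DEGs and none a downregulated one (13.6% and 11.7% of all genes), Ddit4 having a log2 FC of -1.08 with an adjusted p of 0.265, and the median log2 FC of the list was 2.12. Trib3, a pseudokinase that restrains this response, and Chac1, which degrades glutathione, had log2 FCs of 4.76 and 3.56 (quasi-likelihood adjusted p = 0.00241 and 0.00295). The log2 FCs of Lonp1 (2.09) and of Mthfd2 (2.18), a gene of this list for a mitochondrial enzyme of folate metabolism, were close to this median. That of Gdf15 (4.70) lay above it and that of Hspa9 (1.32) below it. Those of Hspd1 (0.38) and Clpp (0.30) were above the median of all genes, and those of Hspe1 (-0.19) and Clpx (-0.05) below it, without passing the test. Over all lists together, with the 10 genes and the receptor and heat shock genes described further on, 34 genes were upregulated and 13 downregulated DEGs of 124 tested, where 1633 and 1403 of all 11977 genes were. These numbers were 16 and 2 without LPS + DMSO replicate 2 (469 and 182 of all genes), 18 and 2 without LPS + Siponimod replicate 1 (592 and 191), 20 and 4 without LPS + Siponimod replicate 3 (762 and 273), and 30 and 8 without both libraries numbered 3 (1335 and 983).

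**Figure D4:**
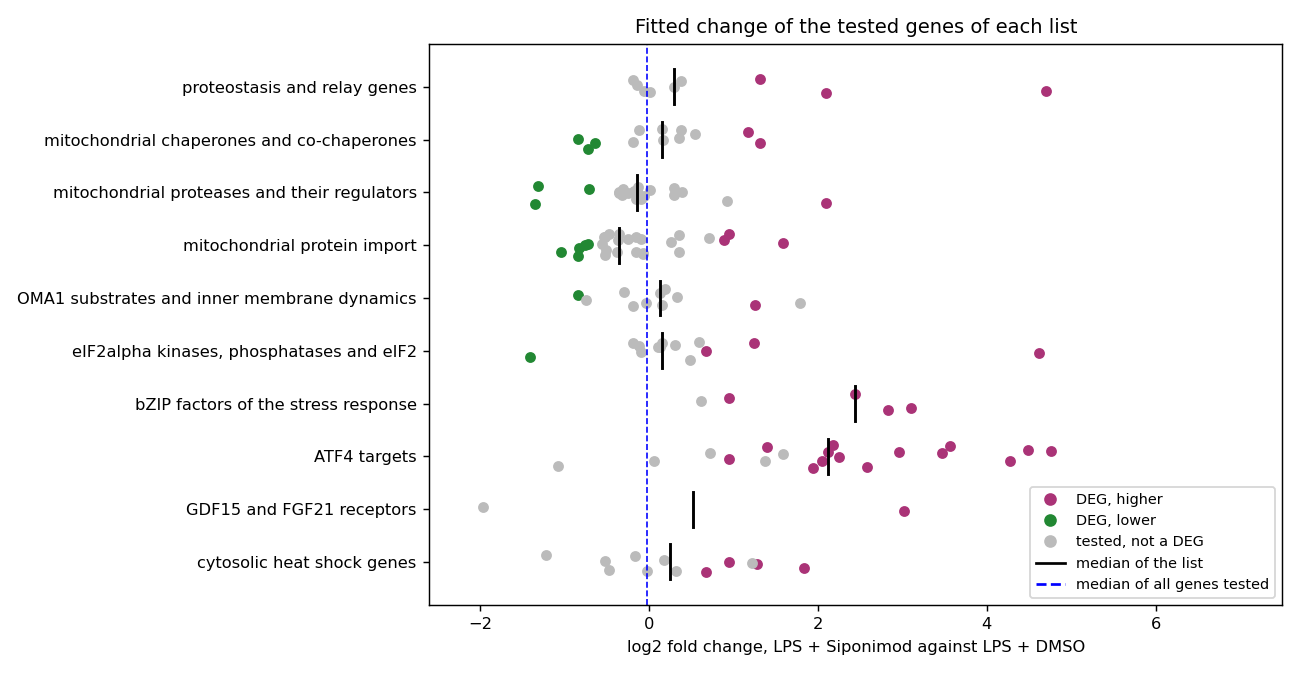
Fitted log2 FC (LPS + Siponimod against LPS + DMSO) of each tested gene of the lists, upregulated DEGs in purple, downregulated DEGs in green and other tested genes in grey; the black line is the median of a list and the blue dashed line that of all 11977 genes (-0.02). The transcription factors and the ATF4 targets lie to the right, with medians of 2.44 and 2.12, and the 4 mitochondrial lists have medians between -0.35 and 0.16.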

How the data were processed

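Microglial mRNA was sequenced as single reads in 6 libraries, 3 biological replicates per condition. The authors trimmed the reads, mapped them to the rat genome (mRatBN7.2) in the CLC Genomics Workbench and deposited raw total counts per gene, without normalization; bcl2fastq (version 2.20.0.422) is named in the submitters' processing notes. The handling of shared reads, strand and introns is not given in the sources used here. In 1 file, 1 row without a name was left out.

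The tests used edgeR (version 4.0.16) under R (version 4.3.3). Genes were kept by filterByExpr (minimum count 10, minimum total 15), which left 11977 of 23139, and TMM factors lay between 0.939 and 1.06. Siponimod against its solvent was tested with glmQLFTest, without covariates, and Benjamini-Hochberg adjustment over all genes tested. The standard error is the log2 FC divided by the square root of the F statistic, and 95% intervals use the degrees of freedom of that test. Differences within pairs are log2 CPM with a prior count of 2. Adjusted p-values over ratios are Benjamini-Hochberg values over the 9 ratios. Genes, lists and tests were chosen with earlier results of these data known; named are the 10 genes, up to 3 DEGs per list and direction, and genes of the lists of eIF2α kinases with eIF2 and eIF2B, of transcription factors and of receptors. Outside this rule Grpel1, Grpel2, Afg3l2, Yme1l1, Opa1, Ddit4, Hspa8 and the markers with counts in the libraries numbered 3 were chosen after their values were seen. So were Hsph1, Hsp90ab1, Dnajb1, Dnaja1 and Stip1 among the heat shock genes.

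Same-numbered libraries deviated together from their group means (correlations over genes of 0.42, 0.545 and 0.611, against -0.534 to 0.0856 for other numbers), so that a replicate block was fitted as an alternative; the pairing rests on these values. Further alternatives were RLE factors, DESeq2 (version 1.42.0), limma-voom (limma version 3.58.1), the likelihood ratio test, no filter (17057 genes), a mean of at least 1 CPM (10885 genes), each library left out, and, added after the data were seen, both libraries numbered 3 left out. The fit was tested on simulated data. Promoters are from RefSeq (GRCr8), another build than that used for mapping; 8 of the 10 genes matched by symbol, with 9 windows. Lonp1 and Clpx had no entry. List genes without a row in the count tables were not analysed here.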

Additional observations from a re-analysis of the deposited data

How the results depend on the processing

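For the 9 tested genes, 118 of 126 values under the 14 alternatives kept their direction and their call as a DEG or not, the latter resting on the adjusted p and the fold together. The exceptions were Hspa9 without LPS + DMSO replicate 2 and 7 changes of sign in Clpx and Oma1, neither of which was ever a DEG. Hspd1 without LPS + DMSO replicate 3 passed the limit of the adjusted p (0.0454) but not that of the fold. Without the libraries numbered 3 the log2 change of the Hspd1 to Hspe1 ratio was 0.67, against 0.58 with them. With the libraries numbered 3 left out, the log2 FC was 0.0413 for Clpx and -0.21 for Oma1, and with no filter it was -0.0006 for Oma1. With single libraries left out it ran from -0.177 to 0.0467 for Clpx and from -0.292 to 0.352 for Oma1. The cause was not tested. Upregulated DEGs among the 10 genes numbered 3 throughout, except for 2 without LPS + DMSO replicate 2. The total of 3036 DEGs ranged from 651 (without LPS + DMSO replicate 2) to 3713 (without LPS + DMSO replicate 3) with single libraries left out. The list genes ranged from 16 to 40 upregulated and from 2 to 15 downregulated DEGs, against 34 and 13, and 8 were downregulated without the libraries numbered 3. With the replicate block there were 4074 DEGs in all, and no call among the 10 genes changed. With single libraries left out, the log2 change of the count ratio ran from 0.44 to 0.71 for Hspd1 to Hspe1, from -0.50 to -0.26 for Clpx to Clpp and from -0.04 to 0.54 for Oma1 to Dele1. Of the 10 genes, depth limits only Fgf21. For the other genes the spread between 3 libraries sets the precision, and since the labels do not say whether replicates came from separate litters or cultures, p-values measure the spread between these libraries.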

Other observations

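Of 7 receptor genes of the 2 hormones, 2 had enough counts to be tested, namely Ret and Fgfr1. Gfral, the receptor of GDF15, had no count in any of the 6 libraries, and Fgfr4 had at most 2. Klb, the co-receptor of FGF21, had 4, 7 and 3 counts with LPS + DMSO and 13, 13 and 8 with LPS + Siponimod, while Fgfr2 and Fgfr3 reached 83 and 30 counts in LPS + DMSO replicate 3 and at most 11 in the other libraries. Ret, the signalling partner of GFRAL, had 16, 10 and 1 counts against at least 64 in each library (log2 FC 3.02 ± 0.78 SE, edgeR quasi-likelihood adjusted p = 0.0347). Fgfr1 was at 169, 72.9 and 28.9 CPM against 20.1, 30.7 and 18.7 CPM, with overlapping groups and a wide spread under LPS + DMSO (log2 FC -1.96 ± 0.62 SE, quasi-likelihood adjusted p = 0.0587).

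Cytosolic heat shock genes held 4 upregulated DEGs among 12 tested genes, beside 13.6% of all genes, and a median log2 FC of 0.25. The first 3 by adjusted p were Hsf2 (10.8 ± 0.883 against 38.5 ± 5.52 CPM, log2 FC 1.83, quasi-likelihood adjusted p = 0.00383), the co-chaperone gene Bag3 (log2 FC 1.28, adjusted p = 0.00802) and Hsf1 (0.68, 0.0248). The other was Hsph1 (0.95, 0.0439). Of the 12 genes, 7 had a positive and 5 a negative log2 FC. Beside Hspa8, the negative ones were Hsp90ab1 (-0.02), Dnajb1 (-0.16), Dnaja1 (-0.47) and Stip1 (-0.52), none a DEG. Hspa1a and Hspa1b were not listed in the count tables. Hspa8, the most abundant gene of the list, was at 1572, 3020.4 and 5036 CPM with LPS + DMSO and at 1066, 1643 and 1429 CPM with LPS + Siponimod, and missed the threshold (log2 FC -1.22, quasi-likelihood adjusted p = 0.0833). The part of the other brain cells in LPS + DMSO replicate 3, its highest library, was not tested.

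Across the 6 libraries, which fall into 2 groups of 3, the 5 tested genes whose log2 CPM was most like that of Gdf15 were Pmm1, AABR07034438.1, Gpat3, Rad17 and Tle3, with Pearson correlations between 0.9975 and 0.9989. Lonp1 ranked 340 in this order (0.974) and Hspa9 867 (0.947). For Hspd1 the 5 genes were Wipf2, Dph5, Myh10, Hspbp1 and Mtmr11 (0.9948 to 0.9971). Clpp ranked 230 (0.953), and Hspe1, the neighbour on the opposite strand, ranked 6067 with a correlation of -0.02. The points share their libraries and the difference between the conditions, and the values are a description.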
